A study of Homo sapiens with 12 samples.

Results

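The proteasome genes described here are the symbols PSMA to PSMG followed by a number, together with POMP, found in both count tables. This rule gave 49 of the 36762 symbols. By role they were 8 alpha subunits and 7 constitutive beta subunits of the 20S core, 4 immuno- and thymoproteasome beta subunits, 6 ATPases and 11 non-ATPase subunits of the 19S regulatory particle, 3 assembly chaperones of that particle, 4 activators, 1 inhibitor and 5 assembly factors of the core. RNA was sequenced in bulk from 4 groups of 3 libraries each, all derived from UCLA1, an established human embryonic stem cell (hESC) line. CDKO lines carry a knockout of the catalytic domain of TET1, the enzyme that oxidises 5-methylcytosine in DNA, and CTRL lines are their controls. Each genotype was taken as incipient mesoderm-like cells (iMeLC), a short intermediate on the way to primordial germ cell-like cells, and as hESC, which gave the groups CDKO iMeLC, CTRL iMeLC, CDKO hESC and CTRL hESC. The iMeLC libraries carry the names of separate lines (CDKO1102, CDKO1105 and CDKO1312, and CTRL1101, CTRL1106 and CTRL1109). The sample titles give the same 6 lines for hESC, but the hESC columns are numbered without a line. The stages therefore share lines that could not be matched, and the stage and interaction fits treat the 12 libraries as independent. Nothing in the labels says whether the lines are independent clones. P-values measure the spread between these libraries.

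The proteasome degrades proteins tagged with ubiquitin. Its 20S core stacks outer rings of alpha subunits on inner rings of beta subunits, and the catalytic sites belong to PSMB5 (chymotrypsin-like), PSMB6 (caspase-like) and PSMB7 (trypsin-like). Interferon-inducible PSMB8, PSMB9 and PSMB10 take the places of PSMB5, PSMB6 and PSMB7 in the immunoproteasome, which favours peptides for presentation on MHC class I. The 19S particle binds, deubiquitinates, unfolds and feeds in substrates, and PSME activators can cap the core in its place. The transcription factor NFE2L1 (NRF1) raises many proteasome genes together through antioxidant response elements when proteasome activity falls. Stem cells are known for high proteasome activity.

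Promoters are shown for 3 members picked by their fitted genotype values in iMeLC and for a pair that holds the response element. None of the 3 passed the genotype test in either stage. RefSeq (GRCh38.p14) gave windows of 300 bases, 250 of them before the transcription start, for 43 of the 49 genes. For 40 of the 43, the bases after the start opened a GENCODE 29 transcript of that gene. PSMA7, PSMB1, PSMB6, PSMB7, PSMD4 and PSMG3 had no entry. PSMB9, PSMD5 and PSMB8 had the 3 lowest fitted CDKO over CTRL values of the members in iMeLC, so their 250 bases before the start are printed with the CG dinucleotides, the sites of DNA methylation, in capitals. No methylation was measured here. PSMB3, a constitutive beta subunit, and PSMG2, a core assembly factor, are printed with the antioxidant response element core in capitals.
PSMB9, chr6:32853942-32854191, plus strand: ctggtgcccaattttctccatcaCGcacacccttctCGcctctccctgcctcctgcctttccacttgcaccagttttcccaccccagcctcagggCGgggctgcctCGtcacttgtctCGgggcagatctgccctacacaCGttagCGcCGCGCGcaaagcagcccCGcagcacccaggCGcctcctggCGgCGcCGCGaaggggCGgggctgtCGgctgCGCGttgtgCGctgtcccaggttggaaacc
PSMB8, chr6:32844680-32844929, minus strand: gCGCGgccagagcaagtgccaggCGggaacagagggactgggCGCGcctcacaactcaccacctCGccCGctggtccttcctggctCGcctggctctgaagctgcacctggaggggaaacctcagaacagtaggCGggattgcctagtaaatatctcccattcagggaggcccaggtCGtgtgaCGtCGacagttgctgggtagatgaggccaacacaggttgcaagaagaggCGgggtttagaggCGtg
PSMD5, chr9:120842923-120843172, minus strand: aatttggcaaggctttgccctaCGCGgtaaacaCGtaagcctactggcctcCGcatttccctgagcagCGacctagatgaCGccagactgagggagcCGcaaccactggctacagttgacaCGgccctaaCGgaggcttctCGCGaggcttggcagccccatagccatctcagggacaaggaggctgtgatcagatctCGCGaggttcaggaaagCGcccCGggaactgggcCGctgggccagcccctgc
PSMB3, chr17:38752491-38752740, plus strand: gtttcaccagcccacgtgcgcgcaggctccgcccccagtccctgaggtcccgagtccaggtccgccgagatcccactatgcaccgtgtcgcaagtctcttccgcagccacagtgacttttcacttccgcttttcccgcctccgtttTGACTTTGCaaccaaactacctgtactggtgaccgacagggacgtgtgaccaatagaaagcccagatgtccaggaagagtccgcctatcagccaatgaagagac
PSMG2, chr18:12658488-12658737, plus strand: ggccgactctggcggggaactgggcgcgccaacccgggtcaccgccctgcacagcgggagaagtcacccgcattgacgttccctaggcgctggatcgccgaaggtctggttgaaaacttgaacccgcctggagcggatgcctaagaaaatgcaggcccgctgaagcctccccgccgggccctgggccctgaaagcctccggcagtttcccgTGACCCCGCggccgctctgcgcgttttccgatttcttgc
The PSMB8 window lies within the GENCODE 29 span of PSMB9, which runs on the opposite strand at chr6:32844136-32859585, and the PSMB8 and PSMB9 genes share exonic bases on opposite strands. Over the whole 300 bases, the CG count was 26 for PSMB9, 17 for PSMB8 and 19 for PSMD5, against a median of 22 over the 43 members (4 to 39) and 14 over all 35116 promoters in the table. The core TGACNNNGC, searched on both strands, was found in 13 of the 43 member promoters (30.2%) and in 13.3% of all promoters. Those 13 were PSMB3, PSMB9, PSMC4, PSMD1, PSMD3, PSMD5, PSMD9, PSMD12, PSME1, PSME2, PSME4, PSMG1 and PSMG2. CCAAT, also on both strands, was found in 19 of 43 (44.2%) and in 34.6% of all promoters. The gamma-interferon activated site TTCNNNGAA, which is its own reverse complement, was found in 5 of 43 (11.6%) and in 7.66% of all promoters, and in neither PSMB8 nor PSMB9 within this window. The TATA box TATAAA, on both strands, was found in 5 of 43 (11.6%) and in 11.5% of all promoters. A letter match is a description and shows no binding.

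Levels are given in CPM, counts scaled to effective library sizes, and SE is the standard error of a log2 fold change. Library totals ran from 52121702 to 109479071 counts in iMeLC and from 12517593 to 18855099 counts in hESC, and the proteasome genes took 0.544% to 0.567% of counts in CDKO iMeLC, 0.502% to 0.550% in CTRL iMeLC, 0.342% to 0.370% in CDKO hESC and 0.323% to 0.380% in CTRL hESC. TET1 itself, whose reads outside the catalytic domain do not test the knockout, had log2 fold changes of 0.09 (adjusted p = 0.577, SE 0.09) in iMeLC and 0.25 (adjusted p = 0.209, SE 0.09) in hESC, CDKO over CTRL. The 7 pluripotency markers summed to 4973 to 5548 CPM in CDKO iMeLC, 4496 to 5205 CPM in CTRL iMeLC, 7726 to 9192 CPM in CDKO hESC and 7600 to 8539 CPM in CTRL hESC. All 6 mesendoderm markers rose in iMeLC in both genotypes, with CTRL1106 iMeLC the lowest of the iMeLC libraries at 336 CPM for their sum. The 3 endoderm markers summed to 96.4 to 224 CPM in CDKO iMeLC, 6.89 to 90.2 CPM in CTRL iMeLC, 8.02 to 118.5 CPM in CDKO hESC, where CDKO hESC 3 was the highest, and 3.89 to 17.7 CPM in CTRL hESC. The mesendoderm markers summed to 913 to 1232 CPM in CDKO iMeLC, 336 to 1025 CPM in CTRL iMeLC, 64.8 to 188 CPM in CDKO hESC and 23.9 to 57.3 CPM in CTRL hESC. So the genotypes were apart in the summed endoderm markers in iMeLC and in the summed mesendoderm markers in hESC. Gene by gene, CDKO lay wholly above CTRL for 2 of 3 endoderm markers in iMeLC (14.3% of all genes). In hESC it did so for 2 of 6 mesendoderm markers (10.2% of all genes). The part of these markers in the genotype values of the proteasome genes was not tested. Of these 9 genes, NODAL, a mesendoderm marker, passed the genotype test in hESC (log2 fold change 1.34, adjusted p = 0.0374). Where reads can be split, values are uncertain. By GENCODE 29, 8 members overlap exons of another gene on the same strand, 19 overlap one on the opposite strand, 12 have pseudogenes that carry their name, and 19 of the 49 have none of these. No label states whether the counting used strand. In bulk RNA, fewer cells of a type and less RNA per cell cannot be told apart.

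Of the 49 genes, 47 had enough reads to be tested. The exceptions were the germline alpha subunit PSMA8, with 2 counts over the CDKO iMeLC libraries, 26 over CTRL iMeLC, 4 over CDKO hESC and 1 over CTRL hESC, and the thymus subunit PSMB11, with 4 counts over CDKO iMeLC, 0 over CTRL iMeLC, 1 over CDKO hESC and 3 over CTRL hESC. Per kilobase of exon, the constitutive beta subunits had the highest median level of the roles in both iMeLC groups, at 121 CPM per kilobase in CDKO iMeLC and 100.4 CPM per kilobase in CTRL iMeLC. In hESC, the 19S ATPases had the highest median, 44.3 CPM per kilobase in CDKO hESC and 47.0 CPM per kilobase in CTRL hESC. The highest single gene in hESC was PSMB6, at 232 CPM per kilobase in CDKO hESC and 228 CPM per kilobase in CTRL hESC. In iMeLC the highest was PSMD4, the ubiquitin receptor, at 189 CPM per kilobase in CDKO iMeLC and 181 CPM per kilobase in CTRL iMeLC. The immunoproteasome subunits were the lowest role in every group, with medians of 0.692 CPM per kilobase in CDKO iMeLC, 0.557 CPM per kilobase in CTRL iMeLC, 1.05 CPM per kilobase in CDKO hESC and 1.25 CPM per kilobase in CTRL hESC.

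The question for each stage was whether loss of the TET1 catalytic domain went with a change of proteasome transcripts. No proteasome gene passed the test in either stage. In iMeLC, 0 of the 47 tested genes were called by edgeR's quasi-likelihood test at a Benjamini-Hochberg adjusted p under 0.05, where 0.345% of all 19999 genes tested were. At an unadjusted p under 0.05 there were 11 of 47, against 19.8% of all genes. DESeq2 also called 0 of the 47. The fitted values leaned upward all the same, with 40 of 47 above 0 in CDKO against CTRL (46.9% of all genes) and a median log2 fold change of 0.13 (-0.03 over all genes). The libraries of CDKO lay wholly above those of CTRL for 15 of 47 genes (14.3% of all genes) and wholly below for 3 of 47 (12.2% of all genes).

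In iMeLC the upward values were small and were found in every role. PSMB1, a constitutive beta subunit without a catalytic site, stood at 155, 147 and 153 CPM in CDKO iMeLC and 119.9, 124 and 119 CPM in CTRL iMeLC. All CDKO libraries lay above all CTRL libraries, and the log2 fold change of 0.30 (adjusted p = 0.127, SE 0.07) had the smallest adjusted p of the 47. PSMC2, an ATPase that unfolds substrates, stood at 144, 146 and 145 CPM in CDKO iMeLC and 128, 113 and 107 CPM in CTRL iMeLC, again without overlap and with a log2 fold change of 0.29 (adjusted p = 0.151, SE 0.09). PSME4, the large monomeric activator PA200 linked to histone degradation, stood at 271, 234 and 229.8 CPM in CDKO iMeLC and 200.2, 189 and 191 CPM in CTRL iMeLC. Its groups did not overlap either, and its log2 fold change was 0.31 (adjusted p = 0.151, SE 0.09). PSMB7 had a log2 fold change of 0.24 (adjusted p = 0.186, SE 0.08). For PSMD11, a non-ATPase lid subunit, it was 0.23 (adjusted p = 0.187, SE 0.08) as log2, and for the alpha subunit PSMA3 0.25 (adjusted p = 0.229, SE 0.10). By role, values above 0 numbered 6 of 7 alpha subunits, 6 of 7 constitutive beta subunits, 6 of 6 ATPases and 11 of 11 non-ATPase subunits. They also numbered 2 of 3 chaperones of the 19S particle, 3 of 4 activators and 4 of 5 core assembly factors. The 1 inhibitor and 1 of 3 tested immunoproteasome subunits were above 0 as well.

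The 7 members below 0 in iMeLC were PSMB9, PSMD5, PSMB8, PSMG4, PSME1, PSMA1 (log2 fold change -0.02) and PSMB6 (-0.01). PSMB9 stood at 0.0668, 0.184 and 0.130 CPM in CDKO iMeLC and 0.211, 0.545 and 0.782 CPM in CTRL iMeLC, which were 3, 14 and 9 counts in CDKO iMeLC and 18, 47 and 80 counts in CTRL iMeLC. The groups did not overlap, but the level differed severalfold between the CTRL lines, with CTRL1101 the lowest of them, and the log2 fold change was -2.00 (adjusted p = 0.171, SE 0.65). PSMB8 stood at 6.39, 7.65 and 5.57 CPM in CDKO iMeLC and 6.32, 10.5 and 10.8 CPM in CTRL iMeLC, so that CTRL1101 lay within the range of the CDKO libraries while CTRL1106 and CTRL1109 lay above it. Its log2 fold change was -0.53 (adjusted p = 0.282, SE 0.25). PSMB10, at 0.980, 0.566 and 0.984 CPM in CDKO iMeLC and 1.02, 0.522 and 0.303 CPM in CTRL iMeLC, overlapped between genotypes and leaned the other way, with a log2 fold change of 0.43 (adjusted p = 0.664, SE 0.51).

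PSMD5, a chaperone that holds the ATPase ring during 19S assembly, had the lowest fitted value of the non-immune members in both stages. It stood at 4.61, 30.5 and 17.4 CPM in CDKO iMeLC against 73.3, 62.8 and 33.2 CPM in CTRL iMeLC, and at 9.68, 18.5 and 8.61 CPM in CDKO hESC against 30.1, 35.4 and 17.9 CPM in CTRL hESC. Every CDKO iMeLC library lay below every CTRL iMeLC library, while in hESC the highest CDKO library lay just above the lowest CTRL library. The spread within a group was wide, above all in CDKO iMeLC, where CDKO1102 was the lowest and CDKO1105 the highest. The log2 fold change was -1.72 (adjusted p = 0.184, SE 0.58) in iMeLC and -1.16 (adjusted p = 0.114, SE 0.31) in hESC. With 1 library left out, the iMeLC log2 fold change ran from -2.37 (without CDKO1105) to -1.27 (without CDKO1102) and the hESC one from -1.59 (without CDKO hESC 2) to -0.94 (without CDKO hESC 3). In hESC it passed the test without a filter on low genes (log2 fold change -1.17, adjusted p = 2.52e-09) and without CTRL hESC 3 (-1.39, adjusted p = 0.0340). PSMG4, a chaperone of alpha-ring assembly, stood at 45.9, 50.4 and 44.7 CPM in CDKO iMeLC and 55.1, 57.6 and 56.7 CPM in CTRL iMeLC, with the CDKO libraries wholly below and a log2 fold change of -0.29 (adjusted p = 0.152, SE 0.09).

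For the remaining catalytic subunits, activators, the inhibitor and POMP, the genotypes overlapped in iMeLC. Log2 fold changes were 0.11 for PSMB5 and -0.01 for PSMB6 (adjusted p of 0.638 and 0.920 in that order). Of the activators, PSME1 had a log2 fold change of -0.19 (adjusted p = 0.382, SE 0.11), PSME2 one of 0.00 and PSME3 one of 0.21 (adjusted p = 0.328, SE 0.11). POMP had a log2 fold change of 0.12 (adjusted p = 0.484, SE 0.09) and PSMF1 one of 0.04.

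The iMeLC result rests on CTRL1101. Without that library, 13 of the 47 genes were called, in a comparison in which 12.8% of all genes were called (7.1% higher and 5.69% lower). The 11 that were higher in CDKO were PSMA7, PSMB1, PSMB7, PSMC1, PSMC2, PSMC3, PSMC4, PSMD2, PSMD11, PSMD12 and PSME3, with log2 fold changes of 0.28 to 0.38 and adjusted p of 0.0215 to 0.0463. The 2 that were lower were PSMB8 (log2 fold change -0.74, adjusted p = 0.0434) and PSMB9 (-2.37, adjusted p = 0.0435). With any one of the other 5 libraries left out, none of the 47 passed. Over the 6 omissions, the number of genes called over the whole table ran from 15 to 2646. The 7 fibroblast markers summed to 1052 CPM in CTRL1101 iMeLC, 514 CPM in CTRL1106 iMeLC and 513 CPM in CTRL1109 iMeLC. In CDKO iMeLC their sum ran from 792 to 1078 CPM. Their fitted CDKO over CTRL values in iMeLC were above 0 for 7 of 7, and 0 were called. Their part in the iMeLC result was not tested.

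**Figure D1:**
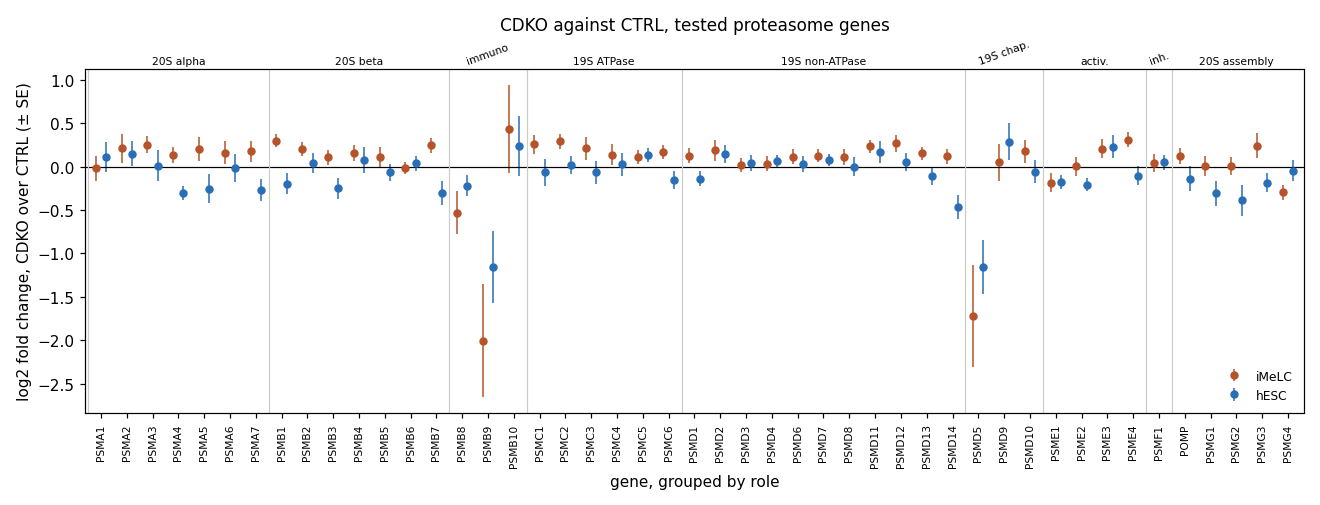
Log2 fold change of CDKO over CTRL (vertical axis, points with ± SE bars) for the 47 tested proteasome genes grouped by role (horizontal axis), in iMeLC and in hESC. Most iMeLC points lie a little above 0, with 40 of 47 positive, while PSMB8, PSMB9 and PSMD5 lie below 0 in both stages, and no point passed the test.

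In hESC, as in iMeLC, 0 of 47 were called between genotypes, where 1.31% of all 17222 genes tested were, and 5 of 47 had an unadjusted p under 0.05, against 16.1% of all genes. DESeq2 called none of the 47. With 1 library left out at a time, edgeR called 2 of 47 without CTRL hESC 3 and 0 without any of the other 5, CDKO hESC 3 among them. Of the fitted values, 20 of 47 were above 0 (49.7% of all genes) and 27 below, with a median log2 fold change of -0.06 (0.00 over all genes). The CDKO libraries lay wholly above the CTRL libraries for 0 of 47 genes (10.2% of all genes) and wholly below for 9 (11.8% of all genes).

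Of the alpha subunits, PSMA4 had the smallest adjusted p, standing at 28.8, 31.0 and 30.0 CPM in CDKO hESC and 37.3, 38.9 and 35.4 CPM in CTRL hESC. The groups were apart, with a log2 fold change of -0.30 (adjusted p = 0.12, SE 0.08). PSMD14, the deubiquitinase of the 19S lid, stood at 12.3, 14.3 and 13.3 CPM in CDKO hESC and 19.8, 20.4 and 15.3 CPM in CTRL hESC, also apart and with a log2 fold change of -0.46 (adjusted p = 0.142, SE 0.14). Without a filter on low genes it was called (log2 fold change -0.48, adjusted p = 0.0346). PSMB9 in hESC stood at 0.361, 0.681 and 0.461 CPM in CDKO hESC and 0.714, 1.21 and 1.51 CPM in CTRL hESC, or 5, 14 and 9 counts in CDKO hESC and 13, 24 and 33 counts in CTRL hESC. These did not overlap, and the log2 fold change was -1.16 (adjusted p = 0.213, SE 0.42). PSMB8 stood at 16.9, 14.6 and 14.1 CPM in CDKO hESC and 17.4, 17.0 and 18.9 CPM in CTRL hESC, apart by a narrow gap and with a log2 fold change of -0.22 (adjusted p = 0.394, SE 0.12). PSMB10 had a log2 fold change of 0.24 (adjusted p = 0.772, SE 0.34).

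Among the remaining roles in hESC, the PA28 activator subunit PSME2 stood at 32.9, 33.7 and 33.9 CPM in CDKO hESC and 38.8, 39.6 and 38.3 CPM in CTRL hESC, with every CDKO library lower and a log2 fold change of -0.21 (adjusted p = 0.218, SE 0.08). Its partner PSME1 had a log2 fold change of -0.18 (adjusted p = 0.314, SE 0.08). The nuclear activator PSME3 had one of 0.23 (adjusted p = 0.423) and PSME4 one of -0.11 (adjusted p = 0.66). The core assembly factor PSMG2 stood at 4.04, 4.82 and 4.05 CPM in CDKO hESC and 5.22, 6.42 and 5.41 CPM in CTRL hESC, apart and with a log2 fold change of -0.39 (adjusted p = 0.32, SE 0.18). The maturation protein POMP had a log2 fold change of -0.14 (adjusted p = 0.659, SE 0.14). For the inhibitor PSMF1 the log2 fold change was 0.05 (adjusted p = 0.819). The constitutive catalytic subunits had log2 fold changes of -0.06 for PSMB5, 0.04 for PSMB6 and -0.30 for PSMB7 (adjusted p of 0.788, 0.860 and 0.329 in that order). Among the ATPases the smallest adjusted p was that of PSMC5, with a log2 fold change of 0.13 (adjusted p = 0.462). The alpha subunit PSMA7 was called without CTRL hESC 3 (log2 fold change -0.42, adjusted p = 0.0432).

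**Figure D2:**
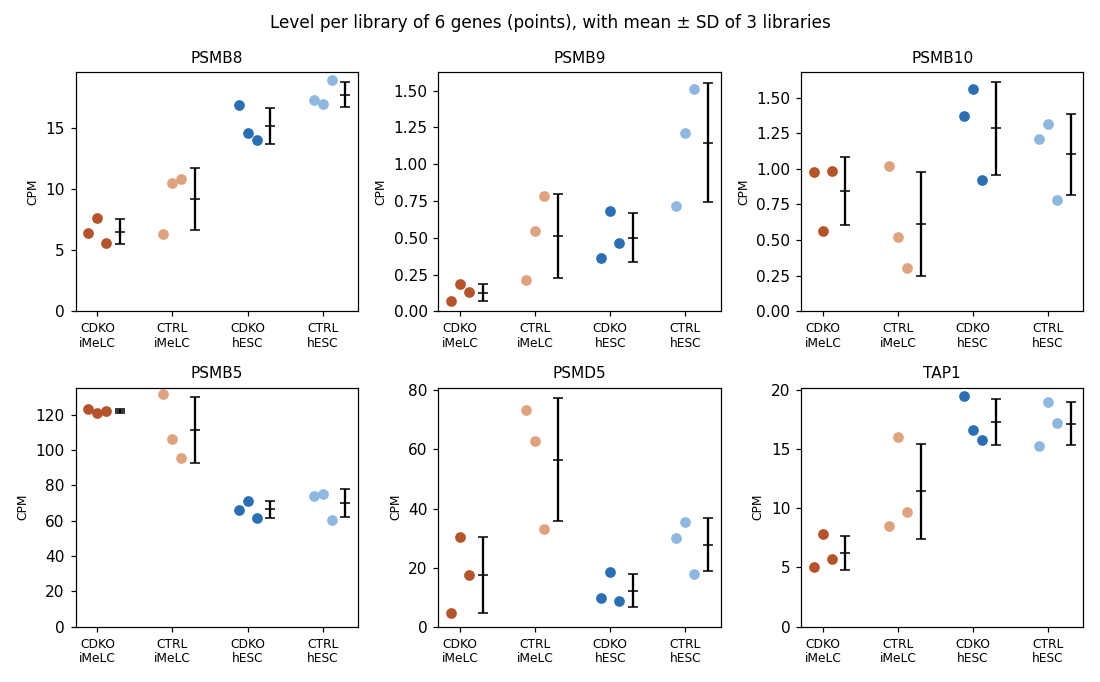
Level in CPM (vertical axes from 0) of PSMB8, PSMB9, PSMB10, PSMB5, PSMD5 and TAP1 in each library (points), by group from left to right CDKO iMeLC, CTRL iMeLC, CDKO hESC and CTRL hESC, with the mean ± SD of 3 libraries in black. The CDKO means of PSMB9 and PSMD5 lie below the CTRL means at both stages with wide spread, the PSMD5 libraries overlap in hESC, and neither gene passed the test, while PSMB8 is lower in iMeLC than in hESC, and PSMB5 is higher in iMeLC.

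Whether the genotype difference itself changed between the stages was tested as an interaction over all 12 libraries. None of the 47 genes was called, where 0.0197% of all 20262 genes were, and 14 of 47 had an unadjusted p under 0.05 (11.2% of all genes). The interaction was above 0 for 40 of 47 genes (48.3% of all genes), with a median of 0.22 on the log2 scale (-0.01 over all genes). The smallest adjusted p belonged to PSMA4, whose interaction was 0.47 (adjusted p = 0.214, SE 0.11) on the log2 scale. PSMD14 followed with 0.62 (adjusted p = 0.241, SE 0.16) and PSMB1 with 0.53 (adjusted p = 0.248, SE 0.14), also as log2 interactions. DESeq2 called 2 of the 47, PSMD14 (log2 interaction 0.66, adjusted p = 0.0372) and PSMA4 (0.51, adjusted p = 0.0336). Without CTRL1101 iMeLC, edgeR called PSMD14 (log2 interaction 0.67, adjusted p = 0.0424). Of the immunoproteasome subunits, PSMB8 had a log2 interaction of -0.27 (adjusted p = 0.758, SE 0.27) and PSMB9 one of -0.77 (adjusted p = 0.752, SE 0.77).

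Between the stages, most proteasome genes were higher in iMeLC than in hESC. In CDKO lines 35 of 47 were called higher and 4 lower, where 32.1% of all genes were called higher and 27.7% lower (59.8% in all). In CTRL lines 33 of 47 were called higher and 3 lower, where 29.5% of all genes were called higher and 19.9% lower (49.4% in all). The median log2 fold change was 0.96 in CDKO lines (-0.08 over all genes) and 0.90 in CTRL lines (-0.01 over all genes). The 33 genes called higher in CTRL lines were all called higher in CDKO lines, and PSMA2, PSMB6 and PSMB8 were called lower in both. With any 1 of the 12 libraries left out, 38 to 40 were called in CDKO lines and 35 to 37 in CTRL lines. The hESC and iMeLC libraries come from separate tables and differ severalfold in depth, and no label states how each table was counted, so stage, table and depth cannot be told apart. The size of the difference was very unequal among subunits that sit in the same particle in fixed proportion.

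Among the alpha subunits, 5 of 7 rose and 1 fell in each genotype. PSMA3 stood at 156, 139 and 131 CPM in CDKO iMeLC, 129, 109.6 and 112 CPM in CTRL iMeLC, 6.72, 9.15 and 10.8 CPM in CDKO hESC and 9.01, 8.89 and 8.90 CPM in CTRL hESC. Every iMeLC library lay far above every hESC library, 15.9-fold in CDKO lines and 13.1-fold in CTRL lines by the fit, with log2 fold changes of 3.99 (adjusted p = 3.55e-10, SE 0.15) in CDKO lines and 3.71 (adjusted p = 1.03e-09, SE 0.15) in CTRL lines. PSMA5 came next, with log2 fold changes of 3.93 (adjusted p = 1.26e-09, SE 0.17) in CDKO lines and 3.43 (adjusted p = 4.87e-09, SE 0.17) in CTRL lines. For PSMA7 the log2 fold changes were 2.94 in CDKO lines and 2.45 in CTRL lines, and for PSMA4 2.55 in CDKO lines and 2.08 in CTRL lines. PSMA6 rose less, with log2 fold changes of 1.08 (adjusted p = 3.22e-05, SE 0.15) in CDKO lines and 0.87 (adjusted p = 0.000258, SE 0.14) in CTRL lines. PSMA1 did not pass, and its log2 fold changes were 0.12 (adjusted p = 0.513, SE 0.16) in CDKO lines and 0.21 (adjusted p = 0.29, SE 0.16) in CTRL lines. PSMA2 stood at 9.35, 7.85 and 8.94 CPM in CDKO iMeLC, 6.57, 8.15 and 7.43 CPM in CTRL iMeLC, 15.5, 12.8 and 11.4 CPM in CDKO hESC and 11.3, 12.9 and 11.7 CPM in CTRL hESC. The iMeLC libraries lay wholly below the hESC libraries, with log2 fold changes of -0.60 (adjusted p = 0.00386, SE 0.15) in CDKO lines and -0.70 (adjusted p = 0.00172, SE 0.15) in CTRL lines. PSMA1, PSMA2 and PSMA6 share exonic bases with another gene on the same strand, and PSMA2, PSMA3 and PSMA6 have pseudogenes that carry their names.

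Of the constitutive beta subunits, 5 of 7 rose and 1 fell in each genotype. The catalytic subunits did not move together. PSMB7 rose, with log2 fold changes of 2.73 (adjusted p = 1.79e-09, SE 0.13) in CDKO lines and 2.14 (adjusted p = 1.76e-08, SE 0.12) in CTRL lines. PSMB5 stood at 123, 121 and 122 CPM in CDKO iMeLC, 132, 106 and 95.6 CPM in CTRL iMeLC, 66.4, 71.4 and 61.6 CPM in CDKO hESC and 74.0, 75.3 and 60.7 CPM in CTRL hESC, with iMeLC wholly above hESC and log2 fold changes of 0.88 (adjusted p = 3.3e-05, SE 0.12) in CDKO lines and 0.67 (adjusted p = 0.0004, SE 0.12) in CTRL lines. PSMB6 stood at 144, 144 and 141 CPM in CDKO iMeLC, 142, 146 and 137 CPM in CTRL iMeLC, 217, 206 and 184 CPM in CDKO hESC and 204, 207 and 183 CPM in CTRL hESC. Here iMeLC lay wholly below hESC, with log2 fold changes of -0.50 (adjusted p = 0.000127, SE 0.08) in CDKO lines and -0.49 (adjusted p = 0.0002, SE 0.08) in CTRL lines. PSMB1 rose too, with log2 fold changes of 2.55 (adjusted p = 7.64e-10, SE 0.11) in CDKO lines and 2.02 (adjusted p = 7.03e-09, SE 0.10) in CTRL lines. For PSMB3 the log2 fold changes were 2.18 in CDKO lines and 1.79 in CTRL lines, and for PSMB2 1.51 in CDKO lines and 1.31 in CTRL lines. PSMB4, which helps beta rings to pair, did not pass, with log2 fold changes of -0.15 (adjusted p = 0.357, SE 0.14) in CDKO lines and -0.27 (adjusted p = 0.119, SE 0.14) in CTRL lines.

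None of the immunoproteasome subunits rose. PSMB8 fell to 6.39, 7.65 and 5.57 CPM in CDKO iMeLC and 6.32, 10.5 and 10.8 CPM in CTRL iMeLC, against 16.9, 14.6 and 14.1 CPM in CDKO hESC and 17.4, 17.0 and 18.9 CPM in CTRL hESC. The stages did not overlap, and the log2 fold changes were -1.22 (adjusted p = 0.000162, SE 0.20) in CDKO lines and -0.95 (adjusted p = 0.00127, SE 0.19) in CTRL lines. PSMB9 had a log2 fold change of -1.93 (adjusted p = 0.0137, SE 0.60) in CDKO lines, a fall past the test that was lost without CDKO hESC 2 (adjusted p = 0.0719). In CTRL lines it had a log2 fold change of -1.16 (adjusted p = 0.0781, SE 0.51), past the test without CTRL1109 iMeLC (-1.65, adjusted p = 0.0309). PSMB10 had log2 fold changes of -0.61 (adjusted p = 0.259, SE 0.45) in CDKO lines and -0.84 (adjusted p = 0.142, SE 0.45) in CTRL lines, and passed in CTRL lines without CTRL1101 iMeLC (-1.45, adjusted p = 0.0146).

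Set against the constitutive subunit it replaces, per kilobase of exon, each immunoproteasome subunit had the lower level in every library. As a percentage of PSMB5, PSMB8 was 4.91%, 5.97% and 4.31% in CDKO iMeLC, 4.53%, 9.36% and 10.7% in CTRL iMeLC, 24.1%, 19.4% and 21.6% in CDKO hESC and 22.2%, 21.3% and 29.5% in CTRL hESC. Every iMeLC library lay below every hESC library. As a percentage of PSMB6, PSMB9 was 0.0440%, 0.121% and 0.0874% in CDKO iMeLC, 0.140%, 0.354% and 0.542% in CTRL iMeLC, 0.157%, 0.312% and 0.238% in CDKO hESC and 0.331%, 0.553% and 0.781% in CTRL hESC. In each stage the CDKO libraries lay below the CTRL libraries. As a percentage of PSMB7, PSMB10 was 0.642%, 0.381% and 0.694% in CDKO iMeLC, 0.770%, 0.451% and 0.256% in CTRL iMeLC, 5.62%, 6.72% and 4.76% in CDKO hESC and 4.26%, 4.12% and 3.40% in CTRL hESC, so that the stages were again apart. Between the stages PSMB7 rose in both genotypes, while PSMB10 itself passed the test in neither. For this percentage, the CDKO libraries lay above the CTRL libraries in hESC, and in iMeLC the genotypes overlapped. The paired genes differ in intron structure, with which the stage values moved, as given below. The longest intron has 760 bases in PSMB8 and 471 in PSMB10, against 6992 in PSMB5 and 27682 in PSMB7. In PSMB9 it has 1848, against 642 in PSMB6. What part intron structure has in these percentages was not tested.

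In the 19S base, 5 of 6 ATPases rose in each genotype. PSMC6 rose most, with log2 fold changes of 2.48 (adjusted p = 4.24e-10, SE 0.09) in CDKO lines and 2.12 (adjusted p = 1.97e-09, SE 0.09) in CTRL lines. For PSMC1 the log2 fold changes were 2.08 in CDKO lines and 1.72 in CTRL lines, and for PSMC2 1.92 in CDKO lines and 1.60 in CTRL lines. PSMC3 and PSMC4 rose less, with log2 fold changes of 1.06 and 0.65 in CDKO lines and 0.74 and 0.50 in CTRL lines. PSMC5 did not pass, with log2 fold changes of -0.17 (adjusted p = 0.0964, SE 0.08) in CDKO lines and -0.19 (adjusted p = 0.0789, SE 0.08) in CTRL lines. It was called lower with the RLE size factors, at adjusted p = 0.0486 in CDKO lines and adjusted p = 0.0204 in CTRL lines, and in CTRL lines also with DESeq2 (adjusted p = 0.0247), and in CDKO lines also in the fit on CDKO libraries alone (adjusted p = 0.0103). It was also called lower in CTRL lines without CTRL1101, CDKO1102, CDKO1105 or CDKO1312 (log2 fold changes of -0.31 to -0.24, adjusted p of 0.00570 to 0.0390), and in CDKO lines without any one of CTRL1101, CTRL1106, CTRL1109 and CDKO1312 (-0.25 to -0.24, adjusted p of 0.00920 to 0.0466).

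Of the 11 non-ATPase subunits 9 rose in each genotype. PSMD14 stood at 154, 148 and 146 CPM in CDKO iMeLC, 149, 127 and 128 CPM in CTRL iMeLC, 12.3, 14.3 and 13.3 CPM in CDKO hESC and 19.8, 20.4 and 15.3 CPM in CTRL hESC. Its log2 fold changes were the largest of the regulatory particle, 3.49 (adjusted p = 2.36e-10, SE 0.12) in CDKO lines and 2.86 (adjusted p = 1.12e-09, SE 0.12) in CTRL lines. PSMD8, a lid subunit, rose, with log2 fold changes of 2.47 (adjusted p = 1.34e-09, SE 0.11) in CDKO lines and 2.32 (adjusted p = 3.43e-09, SE 0.11) in CTRL lines. For PSMD1, a scaffold of the base, the log2 fold changes were 2.08 in CDKO lines and 1.77 in CTRL lines. The remaining 6 that rose, PSMD3, PSMD6, PSMD7, PSMD11, PSMD12 and PSMD13, had log2 fold changes from 0.59 (PSMD7) to 1.91 (PSMD13) in CDKO lines and from 0.50 (PSMD7) to 1.60 (PSMD13) in CTRL lines. PSMD4 had log2 fold changes of 0.09 (adjusted p = 0.336, SE 0.08) in CDKO lines and 0.08 (adjusted p = 0.422, SE 0.08) in CTRL lines. PSMD2, the other scaffold of the base, had 0.21 in CDKO lines and 0.13 in CTRL lines on the log2 scale, and neither passed the test.

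The assembly factors of the core included some of the largest stage differences. POMP, which guides beta-ring formation and is itself the first substrate of the new core, stood at 102, 109.6 and 109 CPM in CDKO iMeLC, 95.3, 88.5 and 105 CPM in CTRL iMeLC, 8.81, 8.32 and 8.86 CPM in CDKO hESC and 9.78, 10.8 and 8.35 CPM in CTRL hESC. The iMeLC libraries lay wholly above the hESC libraries, with log2 fold changes of 3.63 (adjusted p = 1.33e-10, SE 0.11) in CDKO lines and 3.32 (adjusted p = 3.91e-10, SE 0.11) in CTRL lines. PSMG2 rose, with log2 fold changes of 2.55 (adjusted p = 3.82e-09, SE 0.13) in CDKO lines and 2.11 (adjusted p = 2.42e-08, SE 0.13) in CTRL lines. For PSMG1 the log2 fold changes were 1.48 in CDKO lines and 1.12 in CTRL lines, and for PSMG4 0.94 in CDKO lines and 1.15 in CTRL lines, all past the test. PSMG3 had log2 fold changes of 0.62 (adjusted p = 0.00118, SE 0.13) in CDKO lines and 0.15 (adjusted p = 0.337, SE 0.13) in CTRL lines, past the test in CDKO lines. Of the 19S chaperones, PSMD9 rose, with log2 fold changes of 0.96 (adjusted p = 0.00152, SE 0.21) in CDKO lines and 1.16 (adjusted p = 0.000463, SE 0.21) in CTRL lines. PSMD10 rose as well, with log2 fold changes of 0.83 (adjusted p = 0.000114, SE 0.13) in CDKO lines and 0.56 (adjusted p = 0.00287, SE 0.13) in CTRL lines. PSMD5, with its wide spread, had log2 fold changes of 0.51 (adjusted p = 0.422, SE 0.53) in CDKO lines and 1.02 (adjusted p = 0.122, SE 0.52) in CTRL lines.

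Of the 4 activators, 3 rose in CDKO lines and 2 in CTRL lines, and none fell. PSME4 rose, with log2 fold changes of 1.78 (adjusted p = 2.07e-08, SE 0.11) in CDKO lines and 1.32 (adjusted p = 3.86e-07, SE 0.11) in CTRL lines. The PA28 subunits PSME1 and PSME2 are interferon-inducible and pair with the immunoproteasome. PSME1 had log2 fold changes of 0.00 (adjusted p = 0.998, SE 0.10) in CDKO lines and -0.03 (adjusted p = 0.785, SE 0.09) in CTRL lines. PSME2 stood at 51.2, 45.0 and 40.8 CPM in CDKO iMeLC, 43.8, 46.8 and 43.4 CPM in CTRL iMeLC, 32.9, 33.7 and 33.9 CPM in CDKO hESC and 38.8, 39.6 and 38.3 CPM in CTRL hESC. Each genotype lay wholly higher in iMeLC, with log2 fold changes of 0.45 (adjusted p = 0.000928, SE 0.09) in CDKO lines and 0.20 (adjusted p = 0.084, SE 0.09) in CTRL lines, of which the CDKO value passed. PSME3, which forms the nuclear PA28 gamma ring, had log2 fold changes of 0.43 (adjusted p = 0.0178, SE 0.14) in CDKO lines and 0.41 (adjusted p = 0.0261, SE 0.14) in CTRL lines. Its call was lost in CTRL lines with the RLE size factors (adjusted p = 0.0835), with DESeq2 (adjusted p = 0.0874), in the fit on CTRL libraries alone (adjusted p = 0.0967) and without CTRL hESC 3, CTRL1101, CDKO1102 or CDKO1105 (log2 fold changes of 0.24 to 0.36, adjusted p of 0.0514 to 0.156). In CDKO lines it was lost without CDKO hESC 3, CDKO1102, CDKO1105 or CDKO1312 (log2 fold changes of 0.34 to 0.39, adjusted p of 0.0523 to 0.0881). The inhibitor PSMF1 had log2 fold changes of 0.38 (adjusted p = 0.006, SE 0.10) in CDKO lines and 0.35 (adjusted p = 0.0113, SE 0.10) in CTRL lines, and its call in CTRL lines was lost with the RLE size factors (adjusted p = 0.0576), with DESeq2 (adjusted p = 0.0705), in the fit on CTRL libraries alone (adjusted p = 0.0594) and without CTRL1101 (adjusted p = 0.0790).

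**Figure D3:**
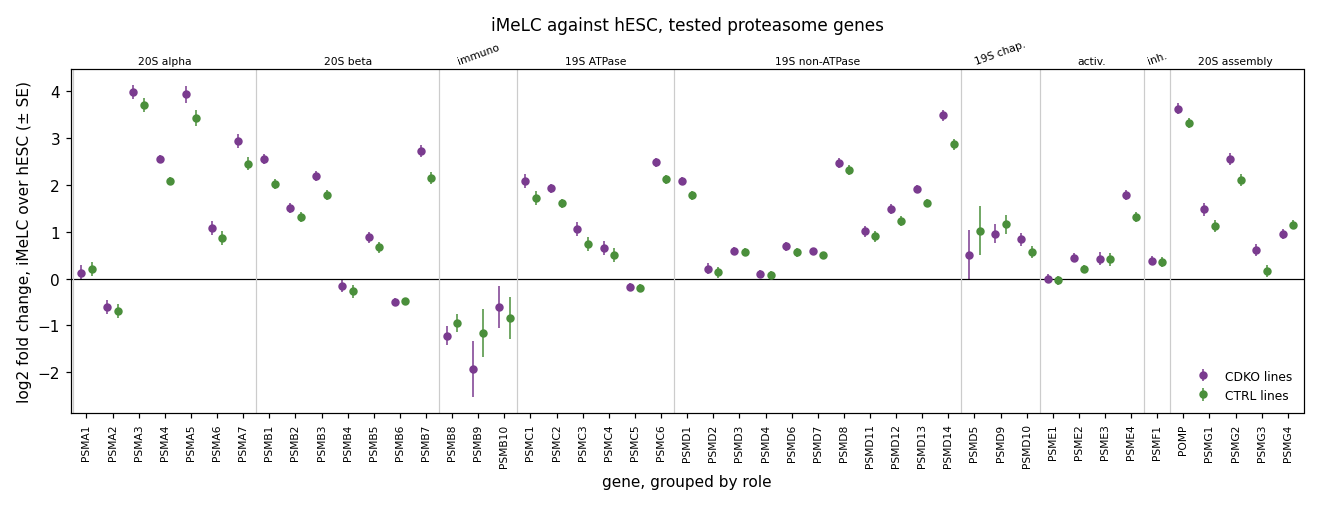
Log2 fold change of iMeLC over hESC (vertical axis, points with ± SE bars) for the 47 tested proteasome genes grouped by role (horizontal axis), in CDKO lines and in CTRL lines. PSMA3, PSMA5, POMP and PSMD14 lie highest, all 3 tested immunoproteasome subunits lie below 0, and neighbours of the same ring differ widely.

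The unequal stage differences moved with the intron structure of the genes, a comparison chosen after the values were seen. Of the 47 genes, 9 had no intron longer than 1500 bases in their principal GENCODE 29 transcript, namely PSMB4, PSMB6, PSMB8, PSMB10, PSMC5, PSMD2, PSME1, PSME2 and PSMG3. In CDKO lines 2 of these 9 were called higher and 2 lower, with a median log2 fold change of -0.15, while 33 of the other 38 were called higher and 2 lower, with a median of 1.49. In CTRL lines 0 of the 9 were called higher and 2 lower, with a median of -0.19, while 33 of the other 38 were called higher and 1 lower, with a median of 1.20. The same split was present among all protein-coding genes. In CDKO lines 17.6% of the 1953 genes with short introns and 43.7% of the 13509 others were called higher, with medians of -0.42 and 0.25. In CTRL lines the shares were 13.9% and 40.2%, with medians of -0.31 and 0.22.

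A finer measure was the share of transcript bases within 75 bases of a junction over an intron longer than 1000 bases. It was 71.4% for PSMA3, 51.5% for PSMD14, 38.0% for POMP and 0% for PSMB6, PSMB8, PSMB10, PSMB4, PSME1 and PSME2. Its Spearman correlation with the stage log2 fold change over the 47 genes was 0.51 in CDKO lines and 0.535 in CTRL lines. Over all protein-coding genes it was 0.381 in CDKO lines and 0.424 in CTRL lines. These describe genes within the same libraries, and genes are not independent replicates. With the genotype difference, which is measured within a table, the correlation over the 47 genes was 0.123 in iMeLC (0.000215 over all protein-coding genes) and -0.214 in hESC (-0.152 over all). With the interaction it was 0.28 over the 47 genes and 0.101 over all. Several genes went against the pattern. PSMA1, at 45.6%, was not called and PSMA2, at 38.9%, fell, as PSMB9, at 27.9%, did in CDKO lines. PSMA4, at 10.2%, and PSMA5, at 12.6%, rose in both genotypes. Other structure measures were also correlated with the stage values, given here for CDKO then CTRL lines. Over the 47 genes summed intron length had 0.57 and 0.617, and the longest intron 0.487 and 0.526. Transcript length had 0.213 and 0.246, and the share near any junction -0.147 and -0.164. Over all protein-coding genes these were 0.221 and 0.231, 0.16 and 0.159, -0.0296 and -0.0545, and 0.227 and 0.267 in that order. What part structure or the table has in the stage difference was not tested.

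**Figure D4:**
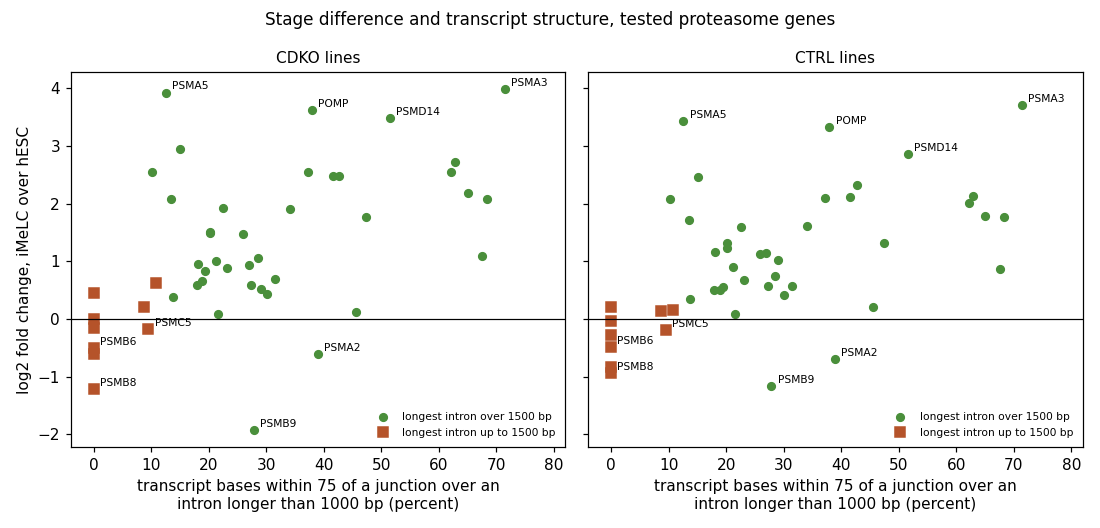
Log2 fold change of iMeLC over hESC (vertical axis) against the percentage of transcript bases within 75 bases of a junction over an intron longer than 1000 bases (horizontal axis), for the 47 tested proteasome genes in CDKO lines (left) and CTRL lines (right). Squares are the 9 genes without an intron longer than 1500 bases, and they lie low in the plot, though PSMG3 and PSME2 were called higher in CDKO lines, while most genes with longer introns lie above 0.

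Genes that act with the proteasome were read from lists outside the rule. Beside their stage counts stand the shares over all genes, 32.1% called higher and 27.7% lower in CDKO lines. In CTRL lines the shares were 29.5% higher and 19.9% lower. Between genotypes, 0.345% of all genes were called in iMeLC and 1.31% in hESC. Of 12 further proteasome partners (such as SEM1, a small lid subunit, and TXNL1, a 19S-bound thioredoxin), 0 were called between genotypes in either stage, and 10 rose and 0 fell between stages in each genotype. SEM1 rose, with log2 fold changes of 2.30 (adjusted p = 3.81e-09, SE 0.12) in CDKO lines and 1.85 (adjusted p = 3.48e-08, SE 0.11) in CTRL lines. TXNL1 had log2 fold changes of 2.21 in CDKO lines and 1.58 in CTRL lines. Of 10 genes of the NRF1 axis 0 were called between genotypes, and between stages 2 rose (NGLY1 and FBXW7) and 1 fell. The one that fell was NFE2L1 itself, with log2 fold changes of -0.41 (adjusted p = 0.003, SE 0.10) in CDKO lines and -0.27 (adjusted p = 0.037, SE 0.10) in CTRL lines. Of 14 tested ubiquitin and shuttle genes, RPS27A, which encodes ubiquitin fused to a ribosomal protein, was the one called between genotypes. It stood at 208, 213 and 205 CPM in CDKO hESC and 275, 277 and 256 CPM in CTRL hESC, without overlap and with a log2 fold change of -0.36 (adjusted p = 0.0412, SE 0.07). In iMeLC its log2 fold change was 0.03 (adjusted p = 0.862, SE 0.09). Between stages, 11 of the 14 rose and 1 fell in CDKO lines, and 9 rose and 2 fell in CTRL lines.

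The antigen processing genes, which work downstream of the immunoproteasome, held no genotype call among the 21 tested. TAP1, the peptide transporter gene that shares a locus with PSMB9, stood at 5.05, 7.82 and 5.74 CPM in CDKO iMeLC and 8.53, 16.0 and 9.72 CPM in CTRL iMeLC. The groups did not overlap in iMeLC, and the log2 fold change was -0.91 (adjusted p = 0.16, SE 0.28), against 0.02 (adjusted p = 0.962, SE 0.13) in hESC. TAP2, its partner, had a log2 fold change of -0.35 (adjusted p = 0.391, SE 0.21) in iMeLC and -0.16 (adjusted p = 0.571, SE 0.13) in hESC. Between stages 8 of 22 rose and 10 fell in CDKO lines (32.1% and 27.7% of all genes). In CTRL lines 7 rose and 7 fell (29.5% and 19.9% of all genes). The share that rose was close to that of all genes, and the share that fell lay above it in both genotypes. TAPBP, which loads class I molecules, fell, with log2 fold changes of -1.45 (adjusted p = 9.52e-08, SE 0.10) in CDKO lines and -1.34 (adjusted p = 2.6e-07, SE 0.10) in CTRL lines. TAP1 fell too, with log2 fold changes of -1.47 (adjusted p = 0.000129, SE 0.23) in CDKO lines and -0.58 (adjusted p = 0.0472, SE 0.23) in CTRL lines. PSMB8-AS1, the antisense neighbour of PSMB8, had log2 fold changes of -3.25 (adjusted p = 0.00212, SE 0.74) in CDKO lines and -1.11 (adjusted p = 0.18, SE 0.66) in CTRL lines between stages, and its exons overlap those of PSMB9 on the same strand and those of PSMB8 on the opposite strand.

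Blood cells carry immunoproteasome subunits constitutively, so their 7 markers were read beside PSMB8 and PSMB9. Their summed level was 5.12 to 7.28 CPM in CDKO iMeLC, 15.0 to 26.9 CPM in CTRL iMeLC, 14.3 to 17.0 CPM in CDKO hESC and 18.5 to 31.2 CPM in CTRL hESC. It moved with PSMB9 between genotypes, and nearly all of it was CD74, which stood at 5.21, 6.53 and 4.38 CPM in CDKO iMeLC, 14.2, 25.8 and 14.4 CPM in CTRL iMeLC, 15.6, 14.3 and 12.7 CPM in CDKO hESC and 17.5, 28.9 and 21.7 CPM in CTRL hESC. CD74 was lower in every CDKO library at each stage, with log2 fold changes of -1.78 (adjusted p = 0.0557, SE 0.28) in iMeLC and -0.67 (adjusted p = 0.11, SE 0.18) in hESC. The defining blood markers were at or near 0, PTPRC at no more than 0.506 CPM and CD3E at no more than 0.195 CPM in any library. Their part in the PSMB9 values was not tested. None of the 4 tested blood markers in iMeLC, nor the 2 tested in hESC, was called between genotypes.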

How the data were processed

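Bulk RNA was sequenced from 12 libraries, 3 in each of 4 groups. The authors deposited raw counts of reads for each gene symbol, as whole numbers, with hESC and iMeLC in separate tables. Per the labels' protocols, RNA came from sorted cells or pellets (RNeasy micro kit), and the library kit (SMARTer Stranded Total RNA) marks strand. The submitters' processing notes name FastQC, cutadapt, edgeR and GRCh38. The aligner, counter, annotation and strand setting were not given in the sources used here.

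Of the 36762 symbols, 34247 (93.2%) matched a GENCODE 29 gene, which gave coordinates, exons and introns. Counts were analysed with edgeR 4.0.16 under R 4.3.3 (TMM scaling, filterByExpr, quasi-likelihood F test, Benjamini-Hochberg adjustment over all genes tested, threshold 0.05). Genotypes were compared within a stage on 6 libraries, and stages and the genotype by stage interaction on all 12 with 4 group means. CPM used the effective library sizes of the 12-library fit, whose scaling within a stage differed from that of the 6-library fits by at most 2.12%. Alternatives were RLE size factors, no filter beyond 1 count, DESeq2 1.42.0, a fit on the other set of libraries and leaving out each library. The edgeR steps were tested on simulated counts. No pair of libraries of a group agreed within sampling noise (chi-square per gene of 4.41 or more).

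The members, the role and wider lists and the tests were chosen with earlier results of these data known. The rule for naming genes took the catalytic pairs, PSMA8, PSMB11, the activators, PSMF1 and POMP, every member called between genotypes, and for each role the member with the smallest adjusted p and, between stages, the highest and lowest log2 fold change. Others were named after their values were seen.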

Additional observations from a re-analysis of the deposited data

How the results depend on the processing

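The cause of each change below was not tested. Over all genes, the calls in hESC (226) became 1228 without a filter, 612 with DESeq2 and 72 in the fit over 12 libraries, and those in iMeLC (69) became 428, 1491 and 1310 in that order. The interaction (4) gave 29 without a filter and 195 with DESeq2. Among the proteasome genes, 2 were called in hESC without a filter and 2 in the interaction with DESeq2, where edgeR called 0. With 1 library left out, proteasome genes called ran from 0 to 2 in hESC, 0 to 13 in iMeLC and 0 to 1 in the interaction, and all genes called from 5 to 493, 15 to 2646 and 1 to 439. Log2 values that turned direction are as follows. Between genotypes in iMeLC, PSME2 was -0.0021 without a filter and PSMB6 0.015 in the fit over 12 libraries. Between stages in CTRL lines, PSMD4 was -0.0090 with RLE and -0.0017 with DESeq2, and PSME1 0.023 without a filter. In CDKO lines PSME1 was -0.050 with RLE, -0.040 with DESeq2 and -0.038 on 6 libraries. The PSMB6 interaction was 0.025 with RLE and 0.029 with DESeq2. Leaving out a library turned PSMB6 (-0.022 to 0.11) and PSMF1 (-0.012 to 0.11) in hESC, and PSMB6 (-0.028 to 0.0062), PSME2 (-0.090 to 0.081) and PSMF1 (-0.023 to 0.15) in iMeLC. Between stages it turned PSME1 (-0.15 to 0.024) and PSMD4 (-0.029 to 0.14) in CTRL lines, and PSME1 (-0.10 to 0.039) and PSMD5 (-0.22 to 0.96) in CDKO lines. In the interaction it turned PSMB10 (-0.12 to 0.78), PSMB6 (-0.11 to 0.046), PSME1 (-0.071 to 0.079), PSME3 (-0.093 to 0.17) and PSMF1 (-0.065 to 0.12). Stage counts of proteasome genes stayed within 1.5 times under every alternative run. No paired analysis was possible because the hESC columns carry no line numbers, although the titles give both stages the same lines.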
